A study of Mus musculus with 12 samples.

Results

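Neutrophils sorted from mouse hearts carried abundant mRNA of 4 chemokines, Cxcl2, Ccl3, Ccl4 and Ccl6, and of Ccrl2, a chemerin-binding receptor of the chemokine receptor family, while Cxcl1, Cxcl3, Cxcl16 and Ccl9 were low or differed widely between libraries. These 9 genes were chosen by name, as the CXC and CC chemokines and the chemokine-related receptor picked for description, and all 9 were found among the 11911 genes of the deposited table. None of the 8 genes that could be tested passed the test between LOY and control neutrophils. The 95% intervals for Cxcl2, Ccl6 and Ccrl2 stayed inside a 2-fold change, and those of Cxcl1 and Cxcl3 reached past 2-fold in both directions.

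The data were 12 RNA-seq libraries, 6 with the genotype label LOY (numbered 3, 4, 5, 10, 14 and 15) and 6 with the genotype label control (2, 6, 7, 8, 11 and 12). The series title links LOY to hematopoietic cells that have lost their Y chromosome. The titles of both groups read Control BMT (BMT is a usual short form of bone marrow transplantation and is not spelled out in the labels), and the treatment entry is control in all 12. Groups were therefore taken from the genotype entry, and the codes in the titles, ending in KO for LOY and in C for control libraries, divide them in the same way. Each library was made from 800 cells of the digested left ventricle, sorted as CD45.2+, Ly6G+, CD64- and RFP+, and amplified with the SMART-Seq v4 kit. CD45.2 is an allele of a leukocyte surface protein, Ly6G marks neutrophils, CD64 is a macrophage Fc receptor and RFP is a red fluorescent protein. The sources used here do not give how the Y chromosome was removed, nor the age, sex and strain of the mice. The labels do not say that each library came from a separate mouse, so the p-values below measure the spread between these libraries, which may be technical. Values are the reads of a gene after the authors scaled each library by its own factor, and are called normalised reads. Read totals of the listed genes ran from 6767108 to 10203723 in LOY and from 7176250 to 12561174 in control libraries, and 7539 to 9267 and 7954 to 9463 genes were above 0 in them. As a check of the labels, Ddx3y, a Y-linked RNA helicase, ran from 0 to 51.6 normalised reads in LOY libraries, with 4 of 6 at 0, and from 399.7 to 1341 in control libraries.

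Chemokines are small secreted proteins that draw leukocytes along a concentration gradient by acting on receptors coupled to G proteins. Neutrophils both follow them and make them. CXC chemokines that bind Cxcr2 bring in further neutrophils, and CC chemokines act mainly on monocytes, macrophages and lymphocytes through Ccr1 and related receptors. Many of these genes are switched on within hours by interleukin-1, tumour necrosis factor or microbial products through the transcription factor NF-kappaB, and their short-lived mRNAs are cleared by RNA-binding proteins such as Zfp36. In the injured heart, neutrophils are among the first leukocytes to enter from the blood, and chemokines they release there can bring in more neutrophils and monocytes.

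The 9 genes lie on 3 chromosomes in GRCm38, with gene bounds from GENCODE M21. Cxcl3 (ENSMUSG00000029379, GRCm38 chr5:90786103-90789600, plus strand), Cxcl1 (ENSMUSG00000029380, GRCm38 chr5:90891241-90893115, plus strand) and Cxcl2 (ENSMUSG00000058427, GRCm38 chr5:90903871-90905938, plus strand) lie in this order in 1 cluster. Ccl9 (ENSMUSG00000019122, GRCm38 chr11:83572919-83578636, minus strand), Ccl6 (ENSMUSG00000018927, GRCm38 chr11:83587882-83593087, minus strand), Ccl3 (ENSMUSG00000000982, GRCm38 chr11:83647844-83649355, minus strand) and Ccl4 (ENSMUSG00000018930, GRCm38 chr11:83662584-83664683, plus strand) lie in this order on chromosome 11. Cxcl16 (ENSMUSG00000018920, GRCm38 chr11:70453983-70459984, minus strand) lies apart from them on the same chromosome, and Ccrl2 (ENSMUSG00000043953, GRCm38 chr9:111054486-111057519, minus strand) is on chromosome 9. All 9 are annotated as protein coding.

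Promoters of members from both clusters are shown because genes of the same cluster had very different levels. RefSeq promoter windows (GRCm38.p6) were matched for 7 of the 9 genes. The 250 bases before each RefSeq start were searched on both strands for the 10-base kappaB consensus, for the 11-base run that overlapping consensus matches form in Cxcl2, GGGAATTTCCC, for the AP-1 motif TGANTCA and for the TATA motif TATAAA. The 120 bases that end at the start site are printed 5′ to 3′ on the strand of the gene, with kappaB matches in capitals.
Cxcl1, GRCm38 chr5:90891125-90891244, plus strand: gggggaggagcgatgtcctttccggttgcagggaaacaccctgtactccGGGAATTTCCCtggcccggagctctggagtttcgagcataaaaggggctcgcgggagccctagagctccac
Cxcl2, GRCm38 chr5:90903779-90903898, plus strand: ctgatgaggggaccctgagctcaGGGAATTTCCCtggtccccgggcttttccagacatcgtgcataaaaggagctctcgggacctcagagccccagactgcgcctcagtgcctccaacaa
Cxcl3, GRCm38 chr5:90785981-90786100, plus strand: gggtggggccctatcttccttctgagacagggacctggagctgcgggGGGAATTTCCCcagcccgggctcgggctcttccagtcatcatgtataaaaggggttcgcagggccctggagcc
Ccl3, GRCm38 chr11:83649379-83649498, minus strand: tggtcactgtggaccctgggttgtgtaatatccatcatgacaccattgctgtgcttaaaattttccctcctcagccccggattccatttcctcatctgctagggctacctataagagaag
Ccl6, GRCm38 chr11:83593088-83593207, minus strand: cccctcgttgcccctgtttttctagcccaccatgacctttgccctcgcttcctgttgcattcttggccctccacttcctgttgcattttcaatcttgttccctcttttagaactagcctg
Ccl9, GRCm38 chr11:83578637-83578756, minus strand: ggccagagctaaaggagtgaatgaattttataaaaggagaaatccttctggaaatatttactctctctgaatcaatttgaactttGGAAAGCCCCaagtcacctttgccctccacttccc

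The 11-base run stood in all 3 CXC promoters of the chromosome 5 cluster. It began 71 bases before the start in Cxcl1, 97 bases before it in Cxcl2 and 73 bases before it in Cxcl3. Among all 32851 RefSeq promoter windows of this length, 14 (0.0426%) held it. The kappaB consensus matched at 2 positions in each copy of the run, shifted by 1 base. It was found in 5 members in all, also in Ccl9 and at 1 of the 3 annotated starts of Ccrl2. In all windows its share was 7.25%. The AP-1 motif was matched in Ccl9 alone among the members (6.75% of all windows), and the TATA motif in Cxcl3 and Ccl9 (12.4% of all windows). These matches describe letters in a window and show no binding.

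The CXC ligands of Cxcr2 came first. Cxcl2, the macrophage inflammatory protein 2, was abundant in every library. Its normalised reads ran from 12609 through a median of 21096 to 28068 in LOY libraries, and from 9998 through a median of 19920.0 to 35060.1 in control libraries. The highest and the lowest of the 12 values were both in control libraries, control 8 and control 11, and the groups overlapped throughout. Means were 19913 ± 5718 in LOY and 20325 ± 8673 in control libraries (SD, n = 6 each). Between LOY and control, the difference of the mean log2(normalised reads + 1), called the log2 fold change, came to 0.027 (SE 0.286, 95% interval -0.59 to 0.64), adjusted p = 0.9997 by limma, so any difference larger than 2-fold lay outside the interval.

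Cxcl1, known as KC in the mouse, was an on-or-off transcript in these libraries. In LOY libraries it had 513, 239 and 589.6 normalised reads in LOY 3, LOY 5 and LOY 14, while LOY 15 had 1.03 and LOY 4 and LOY 10 were at 0. Control libraries divided in the same way, with 197, 107 and 228 in control 6, control 11 and control 12 and 0 in control 2, control 7 and control 8. Each group thus had 3 libraries above 100 normalised reads and 3 at or near 0. A count of 0 allows up to 3 reads, which is at most 3.80 normalised reads in the libraries at 0, for counting error only. Limma put the log2 fold change at 0.82 (SE 2.29, 95% interval -4.08 to 5.72), adjusted p = 0.999.

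Cxcl3, the third member of this cluster, was detected in all 12 libraries, far below Cxcl2 per kilobase of exon. Its normalised reads ran from 66.1 through a median of 296 to 699 in LOY libraries, and from 61.6 through a median of 115 to 566 in control libraries. LOY 4 and control 8, which also had the highest Cxcl2 of their groups, had the highest Cxcl3. For Cxcl3, limma gave a log2 fold change of 0.65 (SE 0.856, 95% interval -1.18 to 2.48) and an adjusted p of 0.999. Of the 50-base stretches of the longest transcripts, 5.35% of those of Cxcl2 were shared with Cxcl3, so reads there can belong to either gene. The labels do not state how such reads were counted.

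Cxcl16, a chemokine anchored in the membrane that binds Cxcr6, was nearly absent from all but 1 library. LOY 10 had 1013 normalised reads (1435 reads), LOY 14 had 38.9, and the other 4 LOY libraries had between 0.703 and 7.21. Control libraries ran from 0.568 through a median of 1.36 to 7.48, on 18 reads in all. With 10 normalised reads or more in only 2 libraries, Cxcl16 fell below the filter and was not tested, and the authors' deposited table gives it a log2 fold change of 6.23 without a p-value. A limma fit without the filter gave 2.22 (SE 1.63), adjusted p = 0.916.

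Several other values stood apart in the library with the high Cxcl16. Exons of Cxcl16 share 552 bases (18.3%) with Zmynd15, a gene on the opposite strand, and the libraries carry no strand information. Zmynd15 had 358 reads in LOY 10, 1 and 2 reads in LOY 5 and LOY 15, and none elsewhere. LOY 10 also had the highest sum of the 15 cardiomyocyte markers, 66386 normalised reads against 4499 to 16267 in the other LOY libraries and 4767 to 8555 in control libraries. Its sum of macrophage and monocyte markers, 13183, was the highest of the 12 as well, next to 11896 in control 8. Their part in the Cxcl16 value was not tested.

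**Figure D1:**
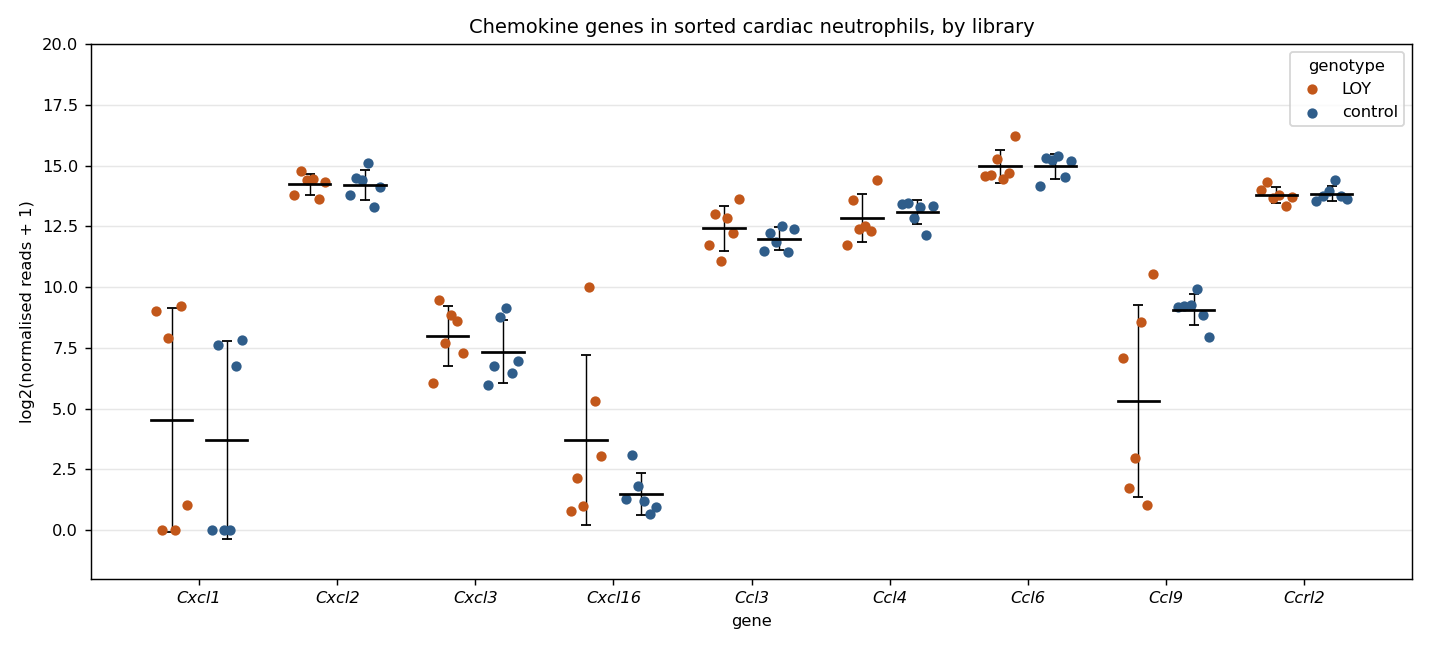
Normalised reads of the 9 genes in each library on a log2(value + 1) axis, LOY in orange left of control in blue, with the mean of the log2 values as a bar and their SD as whiskers (6 libraries each). Cxcl2, Ccl3, Ccl4, Ccl6 and Ccrl2 form tight groups at the top, Cxcl1 is either present or at 0 in both genotypes, Ccl9 spreads from 1.05 to 1506 normalised reads in LOY and from 248 to 969 in control libraries, and Cxcl16 has a single high library, LOY 10.

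Among the CC ligands, Ccl3 and Ccl4, the macrophage inflammatory proteins 1-alpha and 1-beta, attract monocytes, macrophages and lymphocytes, and Ccl3 acts on Ccr1. Ccl3 ran from 2129 through a median of 6062 to 12622 normalised reads in LOY libraries, and from 2746 through a median of 4239 to 5921 in control libraries. The LOY values spread more widely on both sides, since 3 of them lay above the highest control library and LOY 5 lay below the lowest. Its means were 6412 ± 3807 in LOY and 4228 ± 1318 in control libraries (SD, n = 6 each), and limma gave a log2 fold change of 0.43 (SE 0.390, 95% interval -0.41 to 1.27) and an adjusted p of 0.997. With the mean of the cardiomyocyte markers as a covariate the log2 fold change of Ccl3 was 0.000175, and without LOY 15 it was 0.19. The same covariate fit gave 1.03 for Cxcl1, 0.22 for Cxcl2, 0.86 for Cxcl3 and -0.17 for Ccl4. For Ccl6, Ccl9 and Ccrl2 it gave 0.12, -5.70 and -0.018. The part of cardiomyocyte RNA in the Ccl3 value was not tested.

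Ccl4 ran from 3409 through a median of 5579 to 21839 normalised reads in LOY libraries, and from 4579 through a median of 10155 to 11289 in control libraries. In 4 control libraries Ccl4 was closely grouped, between 10044 and 11289, while LOY 4 and LOY 15 lay above them and the other 4 LOY libraries far below. Control 7 and control 11 were lower, at 7330 and 4579, and control 11 lay within the range of those 4 LOY libraries. Means were nearly equal, 8987 ± 7015 in LOY and 9059 ± 2595 in control libraries (SD, n = 6 each). For Ccl4, limma gave a log2 fold change of -0.25 (SE 0.405, 95% interval -1.12 to 0.61), adjusted p = 0.999, and without LOY 15 the value was -0.57.

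The ratio of Ccl3 to Ccl4 within a library takes out what both share with depth. It was 1.01, 0.659, 0.395, 1.28, 0.930 and 0.578 in LOY 3, 4, 5, 10, 14 and 15, and ran from 0.264 through a median of 0.517 to 0.600 in control libraries. In 4 LOY libraries it was above the highest control library, and in the other two it lay inside the control range. This ratio was looked at after the values were seen, and it was not tested.

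Ccl6, known as C10, a ligand of Ccr1 in the mouse, had the highest mean level of the 9 genes per kilobase of exon. It ran from 22557 through a median of 25662 to 76383 normalised reads in LOY libraries, and from 18388 through a median of 37576 to 42526 in control libraries. LOY 15 stood far above the next LOY library, at 39762.5, while control 2 was the lowest of the 12. Means were 35720.4 ± 20867 in LOY and 33342 ± 9903 in control libraries (SD, n = 6 each). Limma gave a log2 fold change of 0.0098 (SE 0.307, 95% interval -0.65 to 0.67) and an adjusted p of 0.9999.

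Ccl9, the macrophage inflammatory protein 1-gamma, another Ccr1 ligand of the mouse, was the member whose groups differed most on the log scale. LOY 4, LOY 5 and LOY 14 had 2.33, 6.92 and 1.05 normalised reads, which are 2, 7 and 1 reads, LOY 3 and LOY 10 had 134 and 379, and LOY 15 had 1506. Control libraries ran from 248 through a median of 595 to 969. Thus 4 of 6 LOY libraries lay below the lowest control library and 1 lay above the highest. Means were 338 ± 590.3 in LOY and 579 ± 236 in control libraries (SD, n = 6 each).

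In limma, the log2 fold change of Ccl9 was -3.74 (SE 1.53, 95% interval -7.01 to -0.47). Its p before adjustment was under the threshold (unadjusted p = 0.0279 from limma's fit over all genes), and it did not pass after adjustment, with an adjusted p of 0.997. It fell short of the threshold in all 23 alternative fits. The lowest adjusted p, 0.485, came from limma with the cardiomyocyte covariate, where the log2 fold change was -5.70. The size of the Ccl9 change depended on the scale, since edgeR gave -0.75 and DESeq2 gave -0.77 on the recovered reads. The 3 libraries with fewer than 10 reads were also the 3 LOY libraries with the fewest genes above 0, at 7539, 8114 and 7950, against 8907 to 9267 in the other 3 LOY libraries. Control 7, with 7954 genes above 0, had 609 normalised reads. The part of detection in the difference was not tested.

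**Figure D2:**
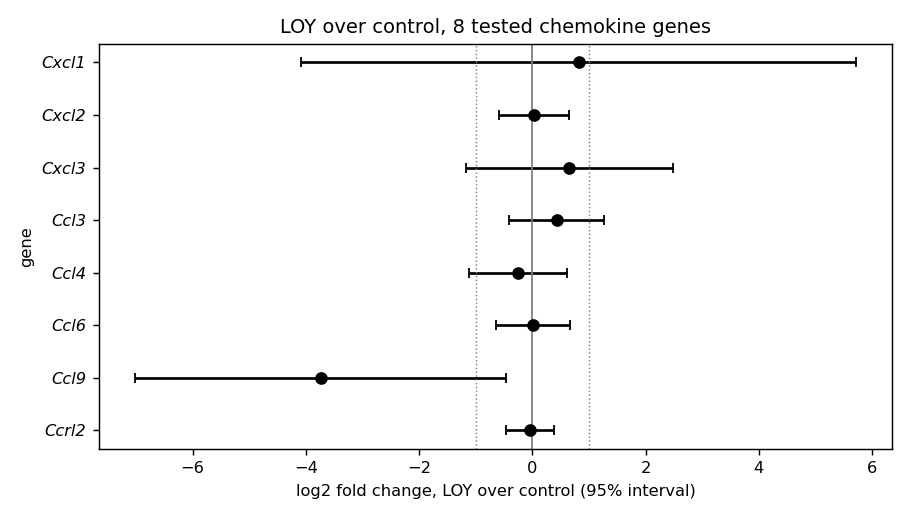
Log2 fold change, LOY over control, of the 8 tested genes from limma, with 95% intervals and dotted lines at a 2-fold change in either direction. Points of Cxcl2, Ccl6 and Ccrl2 sit at 0.027, 0.0098 and -0.040 with intervals inside the dotted lines, Cxcl1 has the widest interval, from -4.08 to 5.72, and Ccl9, at -3.74, is the only one whose unadjusted interval leaves out 0.

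Ccrl2, a receptor-like protein that binds and presents the chemoattractant chemerin and does not signal as the usual chemokine receptors do, was the least variable member. It ran from 10279.9 through a median of 13745 to 20224 normalised reads in LOY libraries, and from 11934 through a median of 13776 to 21697 in control libraries. The highest value was 2.11 times the lowest over all 12 libraries, and the coefficient of variation was 23.4% in LOY and 24.0% in control libraries. Means were 14525 ± 3400.4 in LOY and 14916 ± 3579 in control libraries (SD, n = 6 each). In limma it had a log2 fold change of -0.04 (SE 0.199, 95% interval -0.47 to 0.39), adjusted p = 0.9995, with the narrowest interval of the 8.

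Counted together, 0 of the 8 tested members passed an adjusted p of 0.05 in limma, against 2 of all 6951 genes tested (0.0288%). In edgeR's quasi-likelihood test 0 members passed, against 0 of 7054 genes (0%), and in DESeq2 0 members passed, against 303 of 9723 genes (3.12%). Before adjustment p was under 0.05 for 1 member in limma, Ccl9, against 304 of all 6951 genes tested. No member had an unadjusted p under 0.05 in edgeR or DESeq2, against 129 and 979 of all genes. Of the 8 fold changes, 5 were positive and 3 negative with a median of 0.018, beside a median of 0.0081 over all genes tested. In no member were the 2 groups separate, as they were in 14 of 6951 genes (0.201%). The authors' deposited table gives log2 fold changes of 1.34 for Cxcl1, -0.030 for Cxcl2, 0.52 for Cxcl3, 0.60 for Ccl3, -0.012 for Ccl4, 0.099 for Ccl6, -0.77 for Ccl9 and -0.038 for Ccrl2, with adjusted p-values of 0.924 for Ccl3 and 0.999 for the others. DESeq2 on the recovered reads gave these same fold changes, and 303 genes passed in both. The authors' values are therefore not a result independent of the DESeq2 test.

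The 9 genes together made up 0.810% to 1.65% of the reads of listed genes in LOY libraries, with a median of 1.05%, and 0.775% to 1.28% in control libraries, with a median of 1.04%. Without correction for length, Ccl6 accounted for 26.3% to 52.1% of the members' normalised reads in LOY libraries and for 31.2% to 44.3% in control libraries, and Cxcl2 for 14.0% to 30.4% and 18.1% to 30.0%. LOY 15 had the highest sum of the 9 genes, 146536 normalised reads, and the highest value of the 12 libraries for each of Ccl3, Ccl4, Ccl6 and Ccl9. Its neutrophil marker sum of 386429 was the highest of the LOY group, and its cardiomyocyte and macrophage sums were 15153 and 10056. Without LOY 10 and LOY 15 no member passed, and the log2 fold changes of Ccl3, Ccl4, Ccl6 and Ccl9 were 0.019, -0.57, -0.18 and -5.86.

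Levels were compared between the genes per kilobase of annotated exon, as normalised reads per kb. Ccl6 averaged 19237 ± 8703 over the 12 libraries, Ccl4 13671 ± 7641, Cxcl2 9729 ± 3388, Ccl3 6945 ± 3845 and Ccrl2 5666 ± 1284 (SD, n = 12). By this mean these 5 genes ranked 29, 38, 53, 67 and 84 among the 11892 genes with an exon length. The other 4 were far lower, with 151 ± 147 for Ccl9, 83.3 ± 111 for Cxcl1, 79.6 ± 62.6 for Cxcl3 and 29.8 ± 96.3 for Cxcl16, and the last mean rests on LOY 10.

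Neighbours in the order of mean log2 level were compared within each library by an exact sign-flip permutation test, two-sided, with p adjusted over the 8 pairs. Ccl6 was above Ccl4 in 10 of 12 libraries, by 0.57 on the log2 scale (adjusted p = 0.0378, exact permutation). Ccl4 and Cxcl2, 0.39 apart, did not differ beyond their spread (adjusted p = 0.138, exact permutation). Cxcl2 was above Ccl3 in 10 of 12 libraries, by 0.58 (adjusted p = 0.0378, exact permutation), and Ccl3 and Ccrl2, 0.15 apart, could not be ordered (adjusted p = 0.575, exact permutation). The large step was from Ccrl2 to Cxcl3, 6.56 on the log2 scale and present in 12 of 12 libraries (adjusted p = 0.00391, exact permutation). Below it, Cxcl3, Ccl9, Cxcl1 and Cxcl16 could not be put in order, with adjusted p from 0.262 to 0.915 (exact permutation).

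Annotated exons of Cxcl1, Cxcl2 and Cxcl3 include a retained intron. With the longest protein-coding transcript as the length, a choice made after the data were seen, the step from Ccrl2 to Cxcl3 was 4.87 on the log2 scale. The order and the 3 pairs past the threshold were the same under each of 3 definitions of length.

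**Figure D3:**
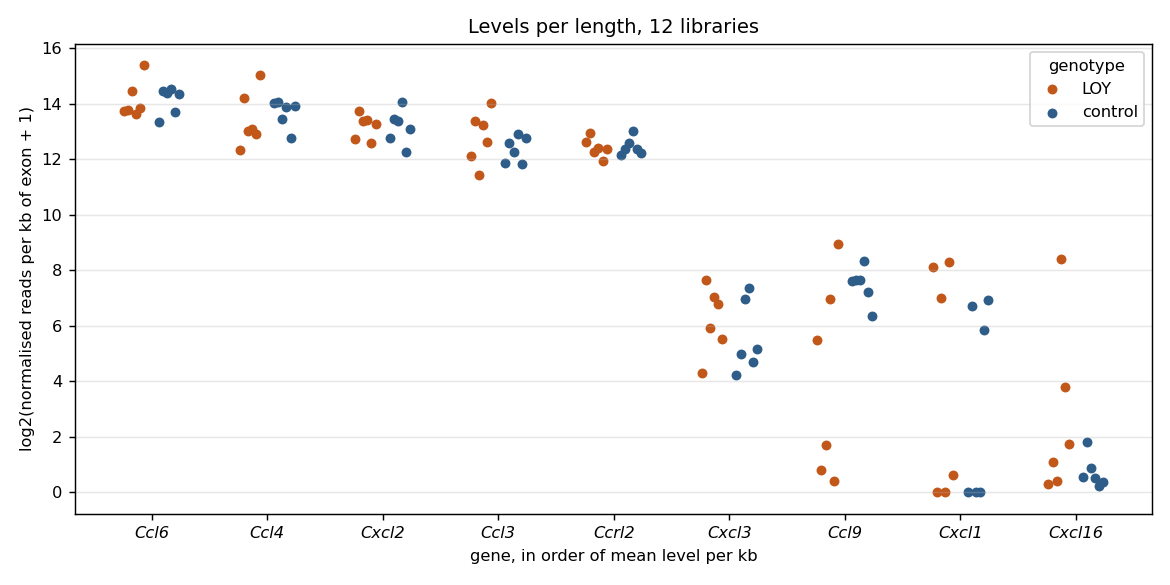
Level of each gene per kilobase of exon, as log2(normalised reads per kb + 1), in order of the mean over the 12 libraries, with LOY in orange left of control in blue and 1 point per library. Ccl6, Ccl4, Cxcl2, Ccl3 and Ccrl2 lie within a narrow band at the top, and the mean level drops by 6.56 on the log2 scale to Cxcl3, the next gene.

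Whether the members varied together was asked over the 12 libraries, using the deviations of log2 values from the mean of each group. The 28 pairs of the 8 tested genes had a median Pearson r of 0.22, with 20 positive and 8 negative, and 0 of 28 passed after adjustment for the 28 pairs (100000 permutations). Ccl3 and Ccl4, neighbours on chromosome 11, had the highest value, r = 0.75 (permutation p = 0.0182, adjusted p = 0.254) and Spearman's rho = 0.74 (permutation p = 0.0193, adjusted p = 0.271). It was 0.79 within LOY and 0.58 within control libraries, and 0.70 without LOY 5 and LOY 15, which lay farthest from the median of Ccl3.

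Cxcl2 and Ccrl2 had r = 0.67 (permutation p = 0.0231, adjusted p = 0.254) and rho = 0.58 (permutation p = 0.0634, adjusted p = 0.326). Cxcl2 and Cxcl3 had r = 0.67 (permutation p = 0.0273, adjusted p = 0.254) and rho = 0.71 (permutation p = 0.0169, adjusted p = 0.271). Without control 8 and control 11, the 2 extremes of Cxcl2, these r values were 0.62 and 0.55. Cxcl1 went the other way, with r = -0.54 against Cxcl2 (permutation p = 0.0781, adjusted p = 0.328) and rho = -0.60 (permutation p = 0.0434, adjusted p = 0.304). That r was -0.39 without LOY 3 and LOY 14. With each library scaled to the same read total instead of by the authors' factor, r was lower for the pairs with positive r named here. It was 0.69 for Ccl3 and Ccl4, 0.49 for Cxcl2 and Ccrl2 and 0.61 for Cxcl2 and Cxcl3. For Cxcl1 and Cxcl2 it was -0.52. Adjusted p was 0.583 for each of these pairs (permutation), and 0 of 28 pairs passed. The part of the scaling in these correlations was not tested.

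**Figure D4:**
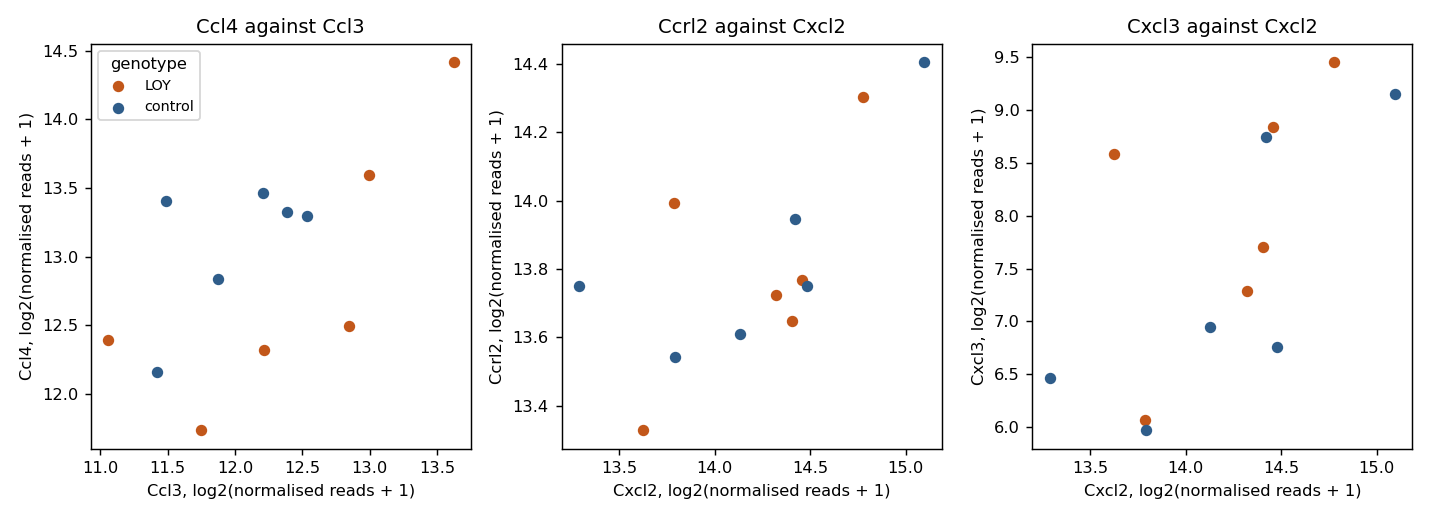
Log2(normalised reads + 1) of the 3 pairs of genes with the highest correlation, with 1 point per library and LOY in orange and control in blue. Ccl4 is plotted against Ccl3 (r = 0.75), Ccrl2 against Cxcl2 (r = 0.67) and Cxcl3 against Cxcl2 (r = 0.67), and in each panel both genotypes cover much of the same range.

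The 2 genes nearest in pattern to each member are given as a description over 12 libraries, out of 6951 genes, by Pearson's r of the same deviations and with no p. For Cxcl2 they were Cd24a, a surface glycoprotein of neutrophils and B cells, and Mrpl14 (r = 0.88 for both), and for Cxcl3 they were Il13ra1 (0.88) and Dab2ip (0.83). For Cxcl1 they were Asl (0.95) and Rfng (0.90). Ccl3 was nearest to Rpl41 (0.98) and Gm10076 (0.96), and Ccl4 to Ftl1 (0.89), the ferritin light chain, and Srgn (0.86), the granule proteoglycan serglycin. Ccl6 was nearest to G0s2 (0.95) and Ccdc180 (0.94), Ccl9 to Imp4 and Hecw2 (0.88 for both), and Ccrl2 to Polr2e (0.89) and Ifi27l2a (0.88). Each is 1 of the 2 highest of 6951 values, and the points share their library and its depth.

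Most other chemokine ligands had few reads or none in many libraries. Of 30 listed, 13 were in the table and 5 could be tested, with 2 fold changes positive, 3 negative, a median of -0.20 and 0 called by limma, edgeR or DESeq2 (0 with an unadjusted p under 0.05 in limma). Cxcl10, an interferon-induced ligand of Cxcr3, had 1063 ± 1069 normalised reads in LOY and 1111 ± 825 in control libraries (SD, n = 6 each), with a log2 fold change of -1.65. Ccl8 had 40.3 ± 74.1 in LOY and 857 ± 2084 in control libraries (SD, n = 6 each), where 1 control library held 5110.2, and it was not tested. Cxcl12, the Cxcr4 ligand of stromal cells, and Ccl2, a monocyte attractant, had log2 fold changes of -0.20 and -0.94.

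Receptors that these ligands act on were read in the same libraries. Of 24 listed, 14 were in the table and 8 tested. Of these, 3 were positive and 5 negative with a median log2 fold change of -0.28, and limma and edgeR called 0. In limma 1 had an unadjusted p under 0.05, Cxcr5, beside 304 of all 6951 genes tested. Cxcr2, the receptor for Cxcl1, Cxcl2 and Cxcl3, had 11463 ± 4567 normalised reads in LOY and 14166 ± 4192 in control libraries (SD, n = 6 each), with a log2 fold change of -0.34. Ccr1, the receptor for Ccl3, Ccl6 and Ccl9, had 9223 ± 1841 in LOY and 9265 ± 4471 in control libraries (SD, n = 6 each), with a log2 fold change of 0.10. Cxcr4, which holds neutrophils in the marrow, and Ccr7, which guides cells to lymph nodes, had log2 fold changes of 0.45 and -0.22. Cxcr6, the receptor for Cxcl16, was at 0 in all 6 LOY libraries and in 5 of 6 control libraries, with 311 normalised reads in the remaining one. DESeq2 alone called 1 receptor, the scavenging receptor Ackr4 (adjusted p = 9.26e-13), on reads in 2 LOY libraries, up to 642 normalised reads, with the other 4 LOY and all 6 control libraries at 0.

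Inducers and regulators of chemokine mRNA were nearly all measured. Of 25 listed, 24 were in the table and all 24 were tested, with 7 positive and 17 negative, a median log2 fold change of -0.28 and 0 called by limma, edgeR or DESeq2 (0 with an unadjusted p under 0.05 in limma). Il1b, an inducer of these chemokines, had 204708 ± 76989 normalised reads in LOY and 239921 ± 99812 in control libraries (SD, n = 6 each), with a log2 fold change of -0.19. Zfp36, which promotes the decay of short-lived cytokine mRNAs, had 41978 ± 12018 in LOY and 32619 ± 9574 in control libraries (SD, n = 6 each), with a log2 fold change of 0.36. The inhibitor Nfkbia and its relative Nfkbiz had log2 fold changes of -0.074 and 0.29. No set test was made, and these counts and medians describe the lists beside the median of 0.0081 over all genes.

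Several members are also made by other cells of the heart, so marker sums are given beside them. All 12 neutrophil markers were in the table, led by S100a9 and S100a8, and their sum ran from 198415 to 386429 normalised reads in LOY and from 220249 to 608877 in control libraries. Macrophage and monocyte markers, 14 of 16 measured and led by Csf1r and C1qb, summed to 2880 to 13183 in LOY and 5299 to 11896 in control libraries. Cardiomyocyte markers, 15 of 15 and led by Tnnt2 and Myh6, summed to 4499 to 66386 in LOY and 4767 to 8555 in control libraries. Medians of this sum were 14145 in LOY and 6079 in control libraries. Besides LOY 10, the sums of LOY 3, LOY 4, LOY 14 and LOY 15 lay above the highest control library, at 16267, 11202, 13136.5 and 15153. Endothelial markers, 11 of 11 and led by Fabp4 and Egfl7, summed to 2951 to 6564 and 1064 to 4097 in LOY and control libraries. Fibroblast markers, 10 of 10 and led by Gsn and Dcn, summed to 5835 to 16580 in LOY and 2972 to 10540 in control libraries. On average most of this sum was Gsn, at 6562 ± 2443 in LOY and 6235 ± 2949 in control libraries (SD, n = 6 each). Dcn had 1102 ± 837 in LOY and 277 ± 284 in control libraries (SD, n = 6 each), and each remaining fibroblast marker also had a higher mean in LOY. Of the 10, 4 (Lum, Pdgfra, Tcf21 and Dpt) were at 0 in 4, 5, 5 and 2 of 6 LOY libraries and in all control libraries.

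Markers of lymphoid and other blood cells were read as well. B cell markers, 8 of 8 and led by Ighm and Ighd, summed to 2996 to 8887 in LOY and 3263 to 12354 in control libraries. T and NK cell markers, 3 of 10 and led by Cd2 and Nkg7, summed to 0 to 658 in LOY and 0 to 645 in control libraries. Mast cell, basophil and eosinophil markers, 2 of 9 (Ear2 and Epx), summed to 0 to 356 in LOY and 0.828 to 982 in control libraries, and red cell and platelet markers, 6 of 8 and led by Hba-a1 and Hbb-bs, ran up to 7166 in LOY and from 2.84 to 9611 in control libraries. The part of these cells in the levels of the members was not tested. In bulk libraries, fewer cells that make a transcript and less RNA per cell cannot be told apart.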

How the data were processed

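Per the submitters' processing notes, the tools used were Subread 1.5.2 with featureCounts, STAR 2.5.2b, Trimmomatic 0.36 and bcl2fastq 2.17, on GRCm38, also named mm10. The libraries were made with SMART-Seq v4 and Nextera XT, per the labels' protocols, and carry neither strand nor molecular identifiers, so PCR copies count as reads. The authors deposited 1 table whose signal columns hold gene reads scaled by a factor for each library. All 103001 values above 0 came out as whole reads once divided by the step of their library (tolerance 0.01 of a read). The deposited table also holds the authors' log2 fold changes and p-values, made with a tool that the sources used here do not name. For the members, DESeq2 on the recovered reads gave the same log2 fold changes. Gene bounds and exon lengths are from GENCODE M21 (11892 identifiers matched).

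The main test was limma 3.58.1 (empirical Bayes, robust and with a trend) on log2(normalised reads + 1) over all 12 libraries, with the genotype as the only term. Genes under 10 normalised reads in more than 6 libraries were left out, and p was adjusted over the 6951 genes tested (Benjamini-Hochberg, threshold 0.05). Recovered reads were also tested with edgeR 4.0.16 (quasi-likelihood) and DESeq2 1.42.0. Scripts were tested on simulated data. Further alternatives were no filter, a mean of at least 50, pseudocounts of 0.5 and 5, quantile normalization, array weights, each library left out in turn, control 8 and LOY 5 left out, and a covariate of cardiomyocyte markers. The fit without LOY 10 and LOY 15 and the protein-coding lengths were added after seeing the data. The members and all gene lists were chosen with earlier results of these data known. Named in the text are all 9 members, of each pathway list the genes past the threshold and the 4 of highest mean, the 2 nearest genes of each tested member and the 2 most abundant genes of each marker list; Ddx3y was named as a check of the labels, and Zmynd15 for its overlap with Cxcl16. Cxcr5, Cxcr6, Ackr4, Lum, Pdgfra, Tcf21 and Dpt were named after their values were seen. No pair of libraries agreed within sampling noise (lowest chi-square per degree of freedom 196). Intervals of fold changes come from the spread between libraries, and floors cover counting error only.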

Additional observations from a re-analysis of the deposited data

Results flagged for a closer look

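Each of the 9 genes was checked in each group of 6 libraries, 18 groups in all, for a highest or lowest library whose gap to its nearest neighbour, divided by the range of the group, exceeded Dixon's 95% critical value for 6 samples. For normally distributed values chance flags about 1 group in 20. The check used normalised reads that were not log-transformed and were skewed in several groups, so this rate need not hold here. Of the 18 groups, 4 were picked out. Cxcl16 in LOY 10 stood at 1013.5 normalised reads, with the next LOY library at 38.9, a gap of 0.962 of the range. Cxcl16 in control 6 stood at 7.48, with the next control library at 2.49 and a gap of 0.723 of the range, on 10 reads. Ccl6 in LOY 15 stood at 76383, with the next LOY library at 39762.5 and a gap of 0.680 of the range. Ccl9 in LOY 15 stood at 1506, with the next LOY library at 379 and a gap of 0.749 of the range. Without LOY 15, the log2 fold changes were -0.24 for Ccl6 and -4.79 for Ccl9.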

How the results depend on the processing

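No member passed the threshold in any alternative run. The direction was kept in every alternative fit by Cxcl3, Ccl3, Ccl4 and Ccl9 (23 fits each). Over these fits Ccl3 ran from 0.000175 to 0.81 and Ccl4 from -0.57 to -0.010, so both also came next to 0. Cxcl1 kept its direction in the 16 fits that included it. It fell below the filter whenever any of its 6 libraries with at least 10 normalised reads was left out. Its direction without those libraries was therefore not tested. Cxcl2, Ccl6 and Ccrl2, whose log2 fold changes lie next to 0, changed sign in 8, 6 and 5 of 23 fits, and the cause was not tested. Cxcl2 was -0.026 in edgeR, -0.030 in DESeq2 and -0.054 without LOY 10 and LOY 15. Ccl6 was -0.042 with array weights and -0.18 without LOY 10 and LOY 15. Ccrl2 was 0.078 after quantile normalization, 0.029 with array weights and 0.10 without control 8 and LOY 5. With 1 library left out at a time, Cxcl2 ran from -0.16 to 0.21, Ccl6 from -0.24 to 0.11 and Ccrl2 from -0.14 to 0.074. Cxcl1 ran from 0.079 to 1.72 over the 6 such fits in which it stayed above the filter. The count of all genes past the threshold was 2, against 0 in edgeR, 303 in DESeq2, 0 with no filter, 0 at a mean of at least 50, 0 without control 8 and LOY 5, 0 with the cardiomyocyte covariate and 0 to 4 with 1 library left out. DESeq2 called 1 receptor, Ackr4. No paired analysis was possible because the groups share no replicate number. The few or absent reads of Cxcl1, Cxcl16 and Ccl9 in several libraries limit what can be said of these genes.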
